A study of Mus musculus with 15 samples.

Results

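The libraries described here are the 3 made from tumours of LLC1-sgLkb1 under radiation alone (RT), out of 15 libraries in the series. RT 1, RT 2 and RT 3 follow the sample descriptions and table columns, while the sample titles number these libraries 1, 4 and 5. LLC1 is the Lewis lung carcinoma line of the mouse, grown here as tumours, and sgLkb1 is its derivative whose genotype label reads LKB1 knockdown (KD). The RT libraries were set beside 3 KD libraries under radiation with an immune checkpoint inhibitor (RI). Further levels come from 3 KD libraries under the inhibitor alone (KD ICI) and from wild-type (WT) LLC1 tumours under the same pair of treatments (WT RI and WT ICI, 3 libraries each). All 15 samples are labelled as tumour, with the carcinoma cells as cell type and no sorting named, and genes of macrophages and fibroblasts were measured in each. The labels name neither an untreated tumour nor a WT tumour given radiation without the inhibitor. Neither the radiation dose, the time of harvest, the inhibitor nor the number of clones behind sgLkb1 is given in the sources used here. The labels do not say that replicates are separate animals, so the spread given below may be technical.

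LKB1, encoded by Stk11, is a kinase that switches on AMPK and its relatives, among them the salt-inducible kinases, which hold back the CREB coactivators of the CRTC family. Loss of LKB1 is frequent in lung cancer and is known there for cyclic AMP type transcription, neutrophil-rich tumours and weak antigen presentation. Ionising radiation breaks DNA, activates p53 and its targets, slows the cell cycle and can raise interferon signalling.

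The RT values came in a table of their own, with other gene rows, so the table and the treatment cannot be told apart. Everything below is therefore a description of ranks, with no test and no claim about radiation. FPKM levels are shown beside the ranks, but the tables were normalised separately, so calls rest on ranks. Each library was ranked over the 32807 gene names found once in both tables, from 0 (lowest) to 100 (highest percentile rank). A gene was counted when its mean over the 3 RT and 3 RI libraries was at least 1 FPKM, the fragments per kilobase of gene, scaled to read depth, which left 10688 genes. A gene was called higher when all 3 RT ranks lay above all 3 RI ranks and lower in the opposite case, and its shift is the mean RT rank minus the mean RI rank in points. Of the counted genes 3567 were higher in RT (33.4%) and 3877 were lower (36.3%). For comparison within 1 table, RI against KD ICI gave 7.41% higher and 6.24% lower, and RI against WT RI gave 27.7% higher and 20.8% lower. Against all 12 other libraries together, 20.7% of counted genes ranked higher in RT and 20.9% ranked lower. A list whose share of calls is near these figures is therefore not set apart by it. A member that passed the minimum through the group where it is high had to differ, so counts of such members are descriptions of the filter too.

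The RT libraries were alike among themselves, with Spearman's rho between 0.967 and 0.977 over the counted genes, against 0.976 to 0.989 within RI. RT correlated with RI at 0.757 to 0.789, with KD ICI at 0.735 to 0.779, with WT RI at 0.800 to 0.822 and with WT ICI at 0.790 to 0.823. These are descriptions across genes, which are not independent, and pairs across tables also share the difference in counting. The read total behind the RT values, worked out from their steps, was 18184360, 18621156 and 19055481 reads, against deposited totals of 17289313 to 23471917 counts in the other 12 libraries. With 3 libraries a group, the number of libraries limits the precision.

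How a gene was counted moved with its shift. Gene length could be compared between the tables, since about 80% of RT values (79.9% to 80.2% per library) became whole reads at the length used in the other table. Among counted genes with that same length and with no exon shared with another gene, 5197 in all, 22.9% were higher in RT and 43.3% were lower. These are called cleanly counted genes below. Among the 2498 genes of other or unknown length 58.5% were higher and 21.1% lower. Of 113 counted processed pseudogenes 84.1% were higher in RT and 12.4% lower, whereas of 117 long intergenic noncoding RNAs 7.69% were higher and 66.7% lower. Of 104 antisense genes 16.3% were higher and 56.7% lower. All 21 genes at 1 FPKM or more in every RT library but listed at 0 in every other library share exon sequence with another gene. One is Med10, a Mediator subunit, at 77.3, 75.6 and 80.1 FPKM in RT and listed at 0 in RI. In the reverse direction Gng3, a G protein gamma subunit, was listed at 0 in all RT libraries, against 4.61, 4.34 and 3.28 FPKM in RI. With predicted genes left out, 10 of the 10 genes of largest rise and 5 of the 10 of largest fall share exon sequence with another gene, beside 36.9% of all counted genes. Of 352 genes with a shift of at least 20 points either way, 126 were cleanly counted. Levels of genes with near-identical copies are uncertain as well, and the cause was not tested. Tpt1, a translation-associated tumour protein gene, had 54.1, 43.0 and 53.9 FPKM in RT against 585, 547 and 524 in RI. Its processed pseudogene Tpt1-ps3 ran the other way, at 4638, 3610.5 and 4993 FPKM in RT against 159, 139 and 134 in RI. The FPKM of the pair summed to 4692, 3653.5 and 5047 in RT and 744, 686 and 658 in RI. FPKM are scaled to each gene's own length, so these are not sums of reads.

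**Figure D1:**
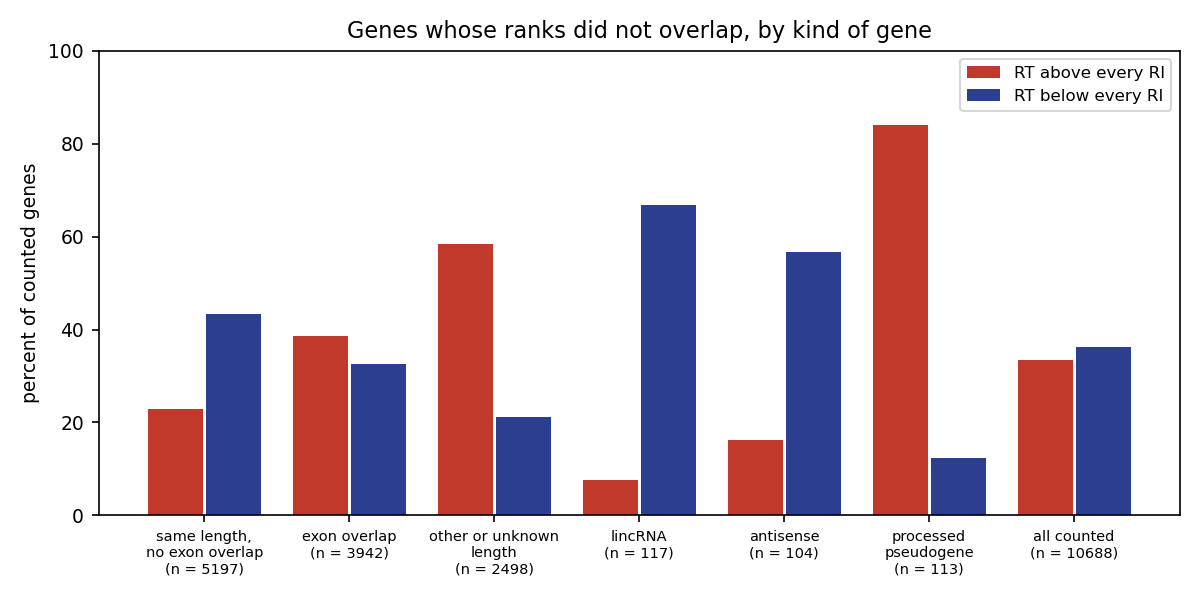
Percent of counted genes, by kind of gene, whose 3 RT ranks lay above (red) or below (blue) all 3 RI ranks; n is the number of counted genes of that kind and kinds can share genes. Processed pseudogenes and genes of other length were mostly higher in RT, long intergenic noncoding RNAs (lincRNA) and antisense genes mostly lower.

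Stk11, the targeted gene (chromosome 10, 80115803 to 80130682, GRCm38), had 11.7, 12.1 and 9.71 FPKM in RT, against 16.8, 12.99 and 15.1 in RI. Its RT ranks of 88.1, 88.3 and 86.7 lay below all 12 other libraries, which held it at 91.0 to 93.1 in KD and 93.0 to 94.6 in WT. Stk11 shares exon sequence with another gene and its counting length differs between the tables, so this rank checks the label only in part. A guide against the gene also need not remove its RNA.

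Genes that told KD from WT in the other table gave a second check. There, of 10815 genes with a mean of at least 1 FPKM over the 12 libraries, 1170 ranked higher in all 6 KD than in all 6 WT libraries (10.8%) and 1162 ranked lower (10.7%). The RT libraries, which had no part in choosing these genes, were then placed between the KD and WT means. Of the cleanly counted genes higher in KD by at least 15 points, RT lay nearer to the WT mean in 43 of 43. Over all lengths it did so in 70 of 72. Of the cleanly counted genes lower in KD by at least 15 points, RT lay nearer to WT in 21 of 49. With no minimum difference the counts were 495 of 574 genes higher in KD and 334 of 630 lower in KD. The libraries labelled RT and KD thus ranked the genes most raised in KD nearer to where WT tumours rank them, while genes most lowered in KD split. Treatment and table cannot be told apart here.

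**Figure D2:**
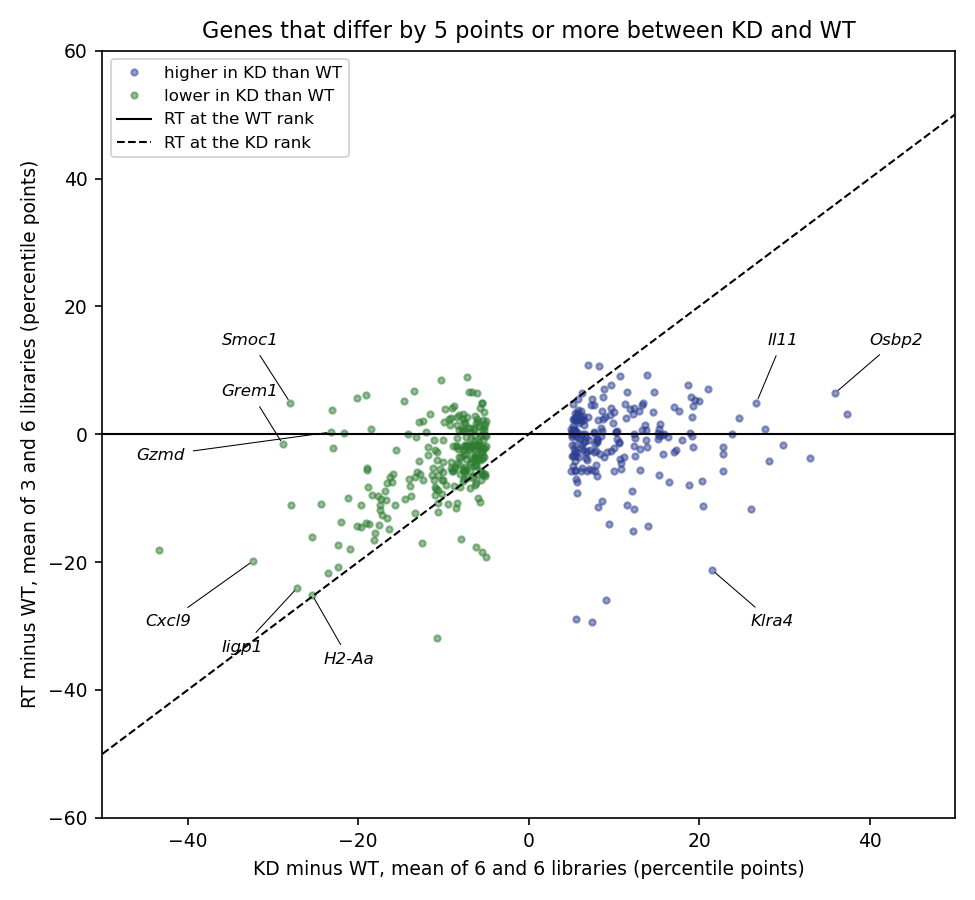
Each point is a cleanly counted gene whose 6 KD and 6 WT libraries of the other table did not overlap and differed by at least 5 points on average; the x axis gives KD minus WT and the y axis RT minus WT, both in percentile points. Of 202 genes higher in KD (blue) 183 lie nearer to the solid line, where RT equals WT, than to the dashed line, where RT equals KD, and some, such as Klra4, lie far below the solid line; among genes lower in KD (green), Smoc1, Grem1 and Gzmd lie at the solid line and Iigp1 and H2-Aa near the dashed line.

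Smoc1, a secreted calcium-binding matrix protein that modulates BMP signalling (chromosome 12, 81026808 to 81186414), showed the split most plainly among genes lower in KD. It had 5.60, 5.47 and 5.21 FPKM in RT, against 0.0386, 0.0264 and 0.0178 in RI, at most 0.0447 in KD ICI and 2.62 to 4.36 in WT. All 3 RT libraries ranked above every other library, WT included. Wnt6, a Wnt ligand, had 3.44, 4.02 and 4.91 FPKM in RT against 0.0557, 0.0676 and 0.0342 in RI, with 2.14 to 4.25 in WT. Sall1, a zinc finger repressor, had 1.41, 1.81 and 1.60 FPKM in RT and 0.0316, 0.00959 and 0.00971 in RI. It was listed at 0 in all 3 KD ICI libraries and stood at 0.850 to 1.32 FPKM in WT, and its mean of RT and RI fell below the minimum for counting. Grem1, a secreted BMP antagonist chosen after its values were seen, ranked at 87.2, 87.3 and 92.7 in RT and at 59.0, 65.4 and 56.3 in RI, with WT at 81.2 to 95.1. In these 4 genes RT and RI did not overlap, and all RT ranks were nearer to the WT range than to RI. In bulk tumour RNA more cells of a type and more RNA per cell cannot be told apart.

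The genes higher in KD named next were low in RT. Osbp2, an oxysterol-binding protein, had 0.447, 0.886 and 0.879 FPKM in RT, against 16.6, 43.7 and 21.5 in RI and 0.0210 to 2.30 in WT. Gap43, a growth cone protein chosen after its values were seen, had 0.353, 0.197 and 0.193 FPKM in RT against 45.0, 89.8 and 69.4 in RI, with 0.215 to 3.51 in WT. The serine protease gene Tmprss11f was listed at 0 in all RT libraries and had 0.815, 6.32 and 1.82 FPKM in RI. The interleukin 6 family cytokine Il11 had 2.60, 5.87 and 1.46 FPKM in RT, against 27.3, 49.1 and 32.4 in RI. Lif, of the same family, had 2.67, 2.93 and 1.90 FPKM in RT and 10.3, 16.8 and 12.5 in RI. By rank both cytokines fell inside the WT range in RT, at 70.8 to 81.3 for Il11 with WT at 63.2 to 81.4, and at 72.6 to 75.1 for Lif with WT at 63.4 to 83.5. Klra4, a natural killer cell lectin-type receptor gene, and Casp4, an inflammatory caspase gene, ranked lower in RT than in all 12 other libraries, WT included. Klra4 ranked at 63.8, 65.6 and 25.7 in RT against 95.1, 95.1 and 95.0 in RI, and Casp4 at 64.5, 64.5 and 66.6 against 90.3, 95.8 and 91.2.

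**Figure D3:**
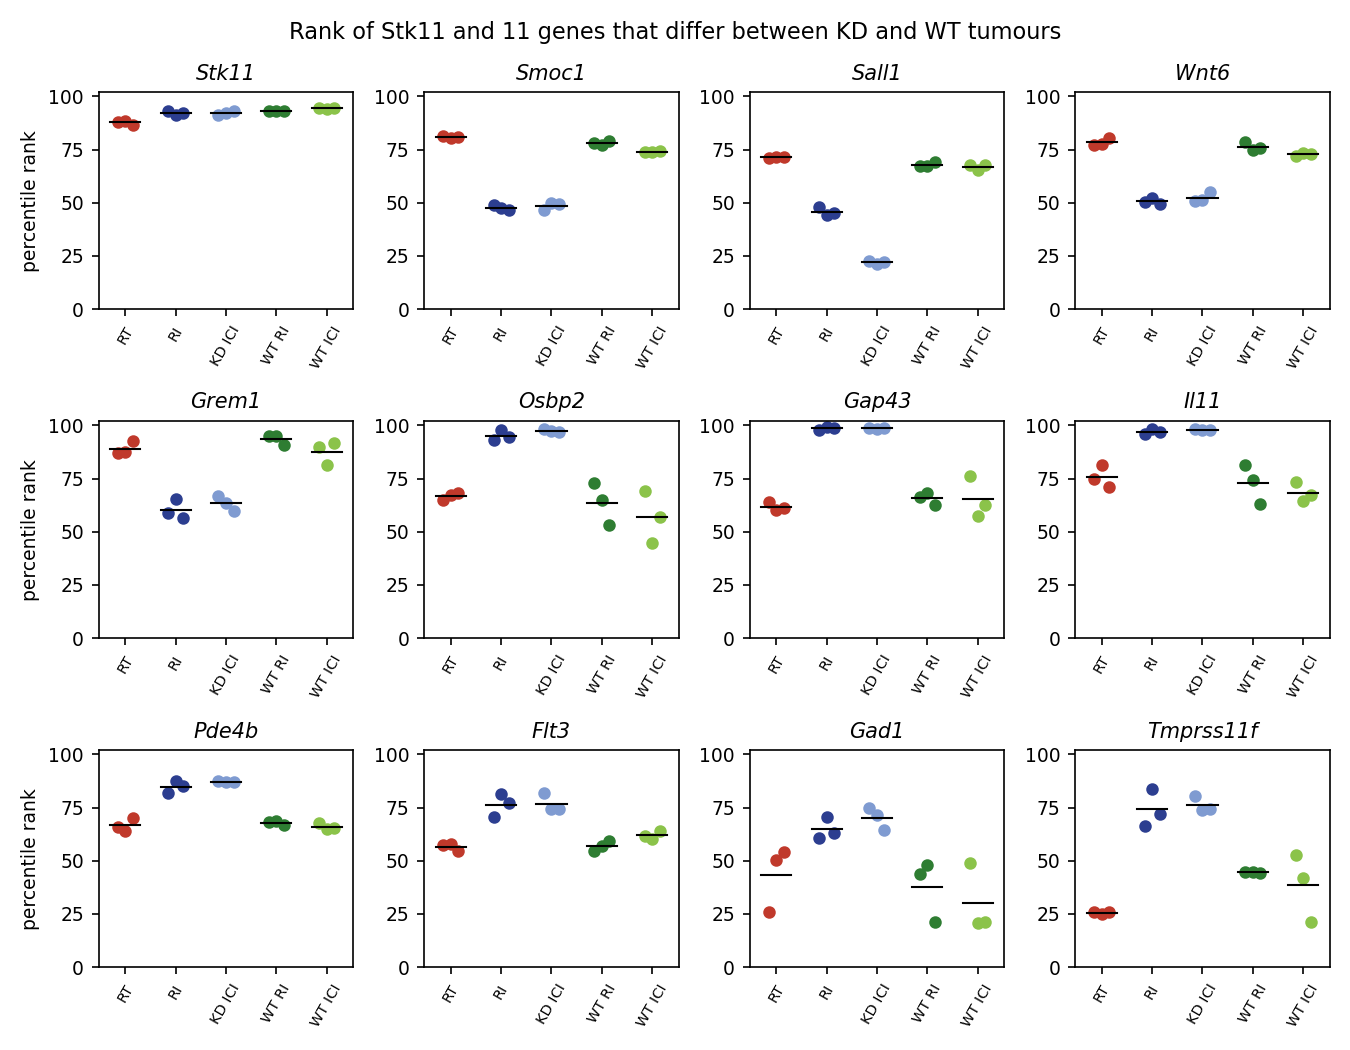
Percentile rank within each library (y axis, 0 to 100) of Stk11 and 11 genes that differ between KD and WT tumours, in RT, RI, KD ICI, WT RI and WT ICI; points are libraries and bars group means. A gene listed at 0 takes a rank between 20.7 and 25.7, as Tmprss11f does in all 3 RT libraries at 25.1 to 25.7, and Smoc1 stands at 80.6 to 81.4 in RT against 46.7 to 48.7 in RI.

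Of 18 CREB and CRTC genes 13 were counted, with 1 higher and 5 lower in RT, beside 33.4% higher and 36.3% lower over all counted genes. Of the 11 cleanly counted members 1 was higher and 5 lower, beside 22.9% and 43.3% over all cleanly counted genes. The share lower is near these figures, and the share higher is below them. The median shift was -2.51 points, beside -0.13 over all counted genes. Among cleanly counted members it was -3.24 points, beside -0.82 over all cleanly counted genes. Pde4b, a phosphodiesterase that breaks down cyclic AMP, had 0.544, 0.419 and 1.30 FPKM in RT and 5.27, 9.24 and 7.10 in RI. Areg, the growth factor amphiregulin, had 16.5, 8.13 and 8.16 FPKM in RT and 45.6, 123 and 59.2 in RI, with no overlap. Sik1, the salt-inducible kinase that is itself a CREB target, overlapped at 21.1, 15.1 and 32.2 FPKM in RT and 22.3, 28.2 and 22.1 in RI. Of 18 subunits and relatives of LKB1 and AMPK 16 were counted, 6 higher and 6 lower, and of the 6 cleanly counted 1 was higher and 3 lower. Cab39, the scaffold of the LKB1 complex, was among the lower, at 11.7, 12.4 and 15.4 FPKM in RT against 16.4, 19.7 and 18.6 in RI.

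Most counted macrophage genes ranked higher in RT. Of 20 listed genes 18 were counted, 11 higher and 1 lower, with a median shift of 2.29 points. Among the 11 cleanly counted members 9 were higher and 0 lower. The shares over all counted genes were 33.4% higher and 36.3% lower, and over all cleanly counted genes 22.9% and 43.3%. Adgre1, the F4/80 antigen, had 13.8, 14.4 and 8.74 FPKM in RT and 2.09, 2.23 and 3.07 in RI. C1qa, a complement C1q chain made by macrophages, had 132, 126 and 77.1 FPKM in RT and 29.9, 34.3 and 31.1 in RI. Cd163, the scavenger receptor for haemoglobin, had 4.33, 8.01 and 5.36 FPKM in RT and 1.68, 1.95 and 1.45 in RI. RT 3 was the lowest RT library for Adgre1 and C1qa, and no gene of these 3 overlapped between RT and RI. Cd163 also ranked above all WT libraries, whereas Adgre1 and C1qa lay within or just below the WT range. Spp1, osteopontin, was the 1 member that ranked lower, by 0.06 points. As a share of all FPKM of a library, which totalled more in RT than elsewhere, the list took 0.405% to 0.568% in RT, 0.359% to 0.380% in RI, 0.335% to 0.473% in KD ICI and 0.572% to 0.922% in WT. RT thus lay above RI, overlapped KD ICI and lay below WT.

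Of 14 cytotoxic lymphocyte genes 4 were counted, and 3 of these 4, Gzma, Prf1 and Ccl5, passed the minimum through RT, so the list's count of 3 higher and 0 lower is no support. The list summed to 39.0, 29.7 and 101 FPKM in RT against 4.43, 7.19 and 4.82 in RI. Gzmb, granzyme B, had 16.8, 12.8 and 54.3 FPKM in RT and 1.00, 2.67 and 1.17 in RI. Prf1, the pore-forming perforin, had 9.69, 9.65 and 33.4 FPKM in RT and 0.325, 0.671 and 0.288 in RI. The chemokine Ccl5, the cleanly counted one among the 4, had 8.89, 4.25 and 6.95 FPKM in RT and 0.971, 0.505 and 0.980 in RI. RT 3 held the most Gzmb and Prf1, and also of Gzmd, a granzyme named after its values were seen, at 74.6, 68.5 and 285 FPKM in RT against 1.73, 6.66 and 0.318 in RI. T cell genes themselves were scarce. None of the 20 listed reached the minimum for counting, and they summed to 6.23, 7.13 and 5.07 FPKM in RT, 1.53, 1.65 and 2.41 in RI and 20.3 to 34.7 in WT. Cd8a, the CD8 alpha chain, had 0.172, 0.0558 and 0.170 FPKM in RT and 0.0144, 0.0263 and 0.0399 in RI, with 0.503 to 1.63 in WT. As a share of all FPKM the T cell list took 0.00163% to 0.00241% in RT, 0.000673% to 0.00108% in RI and 0.00900% to 0.0155% in WT, so RT lay above RI and below WT. In KD ICI the T cell list took 0.000758% to 0.00207%, which overlapped RT, and the cytotoxic list took 0.00322% to 0.00546%, below RT. The cytotoxic list took 0.0129%, 0.01002% and 0.0323% in RT, 0.00196% to 0.00327% in RI and 0.0151% to 0.0451% in WT, with RT 3 inside the WT range and the other 2 RT libraries below it. Of 9 lung alveolar genes 6 were listed at 0 in every RT library and 5 in every RI library. Napsa, an aspartic protease and the 1 counted member of that list, had 5.97, 5.94 and 7.77 FPKM in RT and 0.334, 0.418 and 0.321 in RI, and shares exon sequence with another gene.

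Most counted neutrophil genes ranked lower in RT. Of 15 listed genes 8 were counted, with 0 higher and 6 lower and a median shift of -11.94 points. Among the 7 cleanly counted members 6 were lower. The shares over all counted genes were 33.4% higher and 36.3% lower, and over all cleanly counted genes 22.9% and 43.3%. S100a8, a calprotectin subunit, had 4.97, 2.57 and 10.9 FPKM in RT and 17.4, 50.7 and 19.8 in RI. Retnlg, a resistin-like protein of granulocytes, had 3.53, 2.83 and 5.78 FPKM in RT and 11.2, 39.0 and 14.3 in RI. Mmp9, gelatinase B, had 8.90, 3.36 and 3.18 FPKM in RT and 30.3, 39.8 and 23.4 in RI. For these 3 genes RT and RI did not overlap, and the RT ranks lay inside the WT ranges except S100a8 in RT 2, at 74.0 with WT at 79.1 to 96.0. The list took 0.00923% to 0.0251% of all FPKM in RT, 0.0550% to 0.141% in RI, 0.0771% to 0.310% in KD ICI and 0.0163% to 0.0693% in WT. Among 20 listed chemokines and cytokines 14 were counted, 8 higher and 5 lower. Of the 14, 3 had a mean under 1 FPKM in RT and passed through RI, and 1 passed through RT. Calls of such members are no support. The list took 0.211% to 0.238% of all FPKM in RT against 0.119% to 0.186% in RI. Csf3, granulocyte colony-stimulating factor, was among the lower and passed through RI, with 0.0389, 0.0760 and 0.111 FPKM in RT and 1.89, 6.19 and 2.06 in RI. Cxcl2, a ligand of the neutrophil receptor CXCR2, had 3.52, 1.81 and 5.50 FPKM in RT and 6.87, 43.3 and 10.9 in RI. The monocyte chemoattractant Ccl12 was among the higher, at 19.5, 24.8 and 17.7 FPKM in RT against 4.19, 3.37 and 4.03 in RI.

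Of 20 fibroblast matrix genes 19 were counted, 7 higher and 9 lower, with a median shift of -0.46 points. Among the 10 cleanly counted members 2 were higher and 6 lower, with a median of -12.65 points. The shares over all counted genes were 33.4% higher and 36.3% lower, and over all cleanly counted genes 22.9% and 43.3%. Of the 19, 4 had a mean under 1 FPKM in RT and passed through RI, with Col1a1, Col1a2 and Postn among them. Col1a1, the alpha 1 chain of type I collagen (chromosome 11, 94936224 to 94953042), had 0.714, 2.09 and 0.151 FPKM in RT, against 57.3, 50.4 and 26.2 in RI and 5.37 to 20.8 in WT. Its partner chain Col1a2 had 0.227, 0.613 and 0.0971 FPKM in RT and 17.0, 12.9 and 7.503 in RI. Both collagens are cleanly counted and ranked below all 12 other libraries, and RT 2 was the highest of the RT libraries for each. Postn, the matrix protein periostin, had 0.546, 0.742 and 0.352 FPKM in RT and 4.15, 2.90 and 1.65 in RI. Other genes of the same list went the opposite way. Col3a1, the type III collagen chain, had 369.5, 451 and 458 FPKM in RT and 252, 184 and 164 in RI. Pdgfra, the platelet-derived growth factor receptor of fibroblasts, had 19.6, 24.0 and 33.5 FPKM in RT and 11.2, 6.24 and 5.85 in RI, and ranked above all 12 other libraries. Thy1, a surface glycoprotein, had 7.32, 8.73 and 13.8 FPKM in RT and 3.09, 4.35 and 2.07 in RI. Col3a1 and Pdgfra share exon sequence with other genes and Thy1 differs in length between the tables.

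Sfrp2, a secreted Wnt-binding protein of fibroblasts, was listed at 0 in RT 1 and had 0.247 and 0.0186 FPKM in RT 2 and RT 3, against 3.40, 3.97 and 1.10 in RI. Of the 18 genes in its list 6 were counted, 1 higher and 4 lower. Of the 6, 2 had a mean under 1 FPKM in RT and passed through RI, Sfrp2 among them, so their calls are no support. Sfrp1, its relative, was listed at 0 in RT 1 and RT 3 and had 0.0614 FPKM in RT 2, against 1.36, 2.23 and 1.19 in RI. The mean of Sfrp1 over RT and RI fell below the minimum for counting. Of 8 fat cell genes 3 were counted, each with a mean under 1 FPKM in RT and so through RI alone, which makes their 3 lower calls no support. Adipoq, the adipocyte hormone adiponectin, was listed at 0 in every RT library. Fabp4, a fatty acid-binding protein, had 0.837, 0.335 and 0.624 FPKM in RT and 4.39, 32.4 and 7.79 in RI. The inflammatory fibroblast list held 9 counted genes of 12, 4 higher and 4 lower, beside 33.4% and 36.3% over all counted genes. Of the 9, 2 had a mean under 1 FPKM in RT and passed through RI. Saa3, an acute-phase serum amyloid, was the highest of the 9 by shift, at 60.7, 26.5 and 128 FPKM in RT and 3.03, 4.96 and 1.72 in RI.

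**Figure D4:**
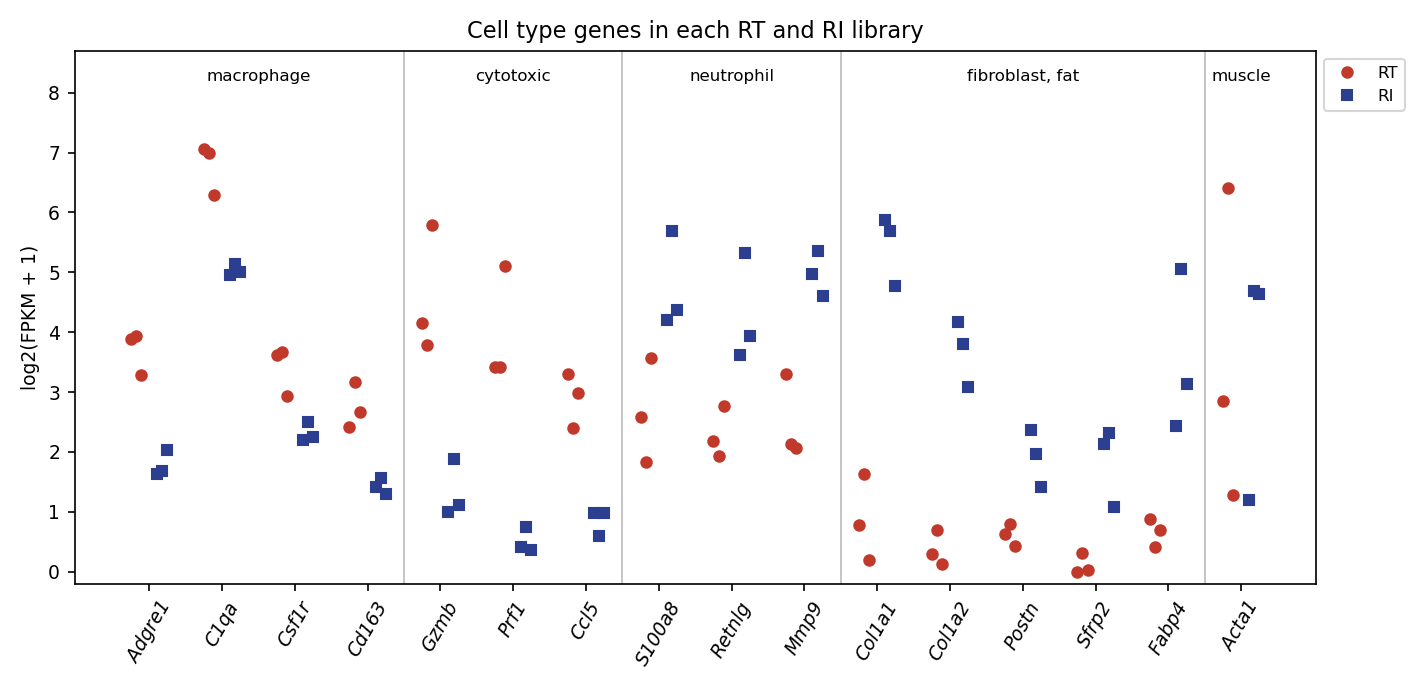
Level as log2(FPKM + 1) (y axis) of 16 cell type genes in each RT (red circles, left) and RI library (blue squares, right). RT lies above RI for the macrophage and cytotoxic genes and below it for the neutrophil, fibroblast and fat genes shown. The fibroblast matrix list as a whole had 7 genes higher and 9 lower, and Col3a1, Pdgfra and Thy1, not shown, were higher. Col1a1, Col1a2 and Postn passed the minimum through RI. Acta1 overlaps, with RT 2 at 83.7 FPKM and the other RT libraries at 6.18 and 1.43.

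Most counted interferon-stimulated and class I genes ranked higher in RT than in RI, but the median shifts were smaller among cleanly counted members. Of 30 interferon-stimulated genes 15 were counted, 10 higher and 2 lower, with a median shift of 3.22 points. Of the 15, 4 had a mean under 1 FPKM in RI and passed through RT. Among the 6 cleanly counted members 2 were higher and 1 lower, with a median shift of 1.90 points. Of 15 class I genes all 15 were counted, 11 higher and 2 lower, with a median shift of 2.75 points. Among the 5 cleanly counted members 3 were higher and 1 lower, with a median shift of 0.04 points. The shares over all counted genes were 33.4% higher and 36.3% lower, and over all cleanly counted genes 22.9% and 43.3%. In neither list did any member rank above all 12 other libraries (0 and 0). The interferon list took 0.0767% to 0.106% of all FPKM in RT, 0.0487% to 0.0588% in RI and 0.0400% to 0.0841% in KD ICI. The class I list took 0.720% to 0.829%, 0.536% to 0.571% and 0.692% to 0.810%. In WT the interferon list took 0.152% to 0.254% and the class I list 1.08% to 1.53%. Both shares in RT thus overlapped KD ICI and lay below WT. Class II genes had 6 counted members of 8, with 2 higher and 0 lower, and 2 of the 6 passed through RT. Promoters of 2 interferon-stimulated genes and of 1 class I gene are printed to show a motif that 14 genes of the first list and 3 of the other hold, with the RefSeq windows of GRCm38.p6 running from 250 bases before to 50 after the gene start. The interferon-stimulated response element was searched on both strands as GAAA, any 2 bases and GAAA again, and matches are in capitals. It was found in 14 of the 23 interferon-stimulated genes with a window and in 3 of 13 class I genes, against 3.44% of all 32851 windows. The cyclic AMP response element TGACGTCA was found in 2 of 15 CREB and CRTC genes with a window, against 1.79% of all windows, and the promoter of Areg is shown as the 1 of those whose ranks lay lower in RT. A match describes the sequence and does not show that a factor binds it.
Bst2 (chr8:71537423-71537722, minus strand): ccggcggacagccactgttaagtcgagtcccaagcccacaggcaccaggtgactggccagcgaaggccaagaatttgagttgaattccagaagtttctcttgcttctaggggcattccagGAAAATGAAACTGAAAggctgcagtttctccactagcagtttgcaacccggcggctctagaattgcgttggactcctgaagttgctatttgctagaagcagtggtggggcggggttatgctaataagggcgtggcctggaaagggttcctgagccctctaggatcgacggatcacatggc
Gbp2 (chr3:142620413-142620712, plus strand): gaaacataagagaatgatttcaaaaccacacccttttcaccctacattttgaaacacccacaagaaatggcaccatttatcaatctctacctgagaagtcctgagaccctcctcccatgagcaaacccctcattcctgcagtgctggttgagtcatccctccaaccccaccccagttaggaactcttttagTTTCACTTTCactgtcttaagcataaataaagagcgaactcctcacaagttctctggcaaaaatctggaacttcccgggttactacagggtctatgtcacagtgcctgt
B2m (chr2:122147437-122147736, plus strand): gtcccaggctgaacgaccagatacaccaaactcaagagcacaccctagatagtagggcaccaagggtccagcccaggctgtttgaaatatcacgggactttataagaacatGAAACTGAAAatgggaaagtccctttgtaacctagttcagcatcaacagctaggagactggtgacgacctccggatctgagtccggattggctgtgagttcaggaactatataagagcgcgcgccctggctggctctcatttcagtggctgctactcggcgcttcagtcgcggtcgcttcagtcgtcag
Areg (chr5:91139349-91139648, plus strand): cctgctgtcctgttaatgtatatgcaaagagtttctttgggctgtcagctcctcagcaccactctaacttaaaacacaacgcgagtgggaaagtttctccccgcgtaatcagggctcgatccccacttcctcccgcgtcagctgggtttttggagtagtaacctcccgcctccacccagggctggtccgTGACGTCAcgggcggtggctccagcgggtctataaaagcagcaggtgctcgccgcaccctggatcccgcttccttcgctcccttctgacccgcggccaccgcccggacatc

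Bst2, the antiviral tetherin, whose window holds 2 matches, had 183, 197 and 149 FPKM in RT and 69.5, 44.2 and 52.2 in RI. Gbp2, a guanylate-binding protein induced by interferon gamma, had 14.6, 6.51 and 17.6 FPKM in RT and 2.20, 2.57 and 2.20 in RI. B2m, the invariant class I chain, had 1081, 986 and 1248 FPKM in RT and 529, 558 and 536 in RI, which at the top of the scale is a shift of 0.04 points. The groups did not overlap in these 3 genes. The chemokine Cxcl9, also induced by interferon gamma, had 4.71, 2.06 and 1.96 FPKM in RT and 0.221, 0.264 and 0.298 in RI, with 16.6 to 39.8 in WT. Psmb10, an immunoproteasome subunit, had 27.4, 26.5 and 24.7 FPKM in RT and 5.76, 4.51 and 6.25 in RI. Gbp2 and Cxcl9 ranked below every WT library in all 3 RT libraries. The class II alpha chain H2-Aa overlapped, at 78.9, 70.8 and 66.7 in RT, 68.8, 65.6 and 67.5 in RI and 96.2 to 98.5 in WT. Oas1a, a sensor of double-stranded RNA, ranked lower, at 82.1, 82.4 and 78.8 in RT and 82.6, 85.7 and 84.1 in RI. Nlrc5, the class I transactivator, also ranked lower, at 77.3, 75.1 and 77.5 in RT and 77.6, 79.2 and 80.8 in RI.

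Of 28 p53 targets 23 were counted, 5 higher and 6 lower, with a median shift of 1.00 point. Among 10 cleanly counted members 0 were higher and 2 lower, with a median shift of -0.32 points. The shares over all counted genes were 33.4% higher and 36.3% lower, and over all cleanly counted genes 22.9% and 43.3%. Cdkn1a, the cell cycle inhibitor p21, overlapped at 19.6, 13.8 and 15.5 FPKM in RT and 14.1, 21.3 and 12.1 in RI. Ccng1, cyclin G1, had 7.15, 9.66 and 9.96 FPKM in RT and 14.6, 15.1 and 15.3 in RI. Mdm2, the ligase that degrades p53, had 4.63, 5.11 and 5.14 FPKM in RT and 9.90, 12.8 and 10.2 in RI. Ccng1 and Mdm2 ranked below all 12 other libraries, though Mdm2 differs in length between the tables. Sesn1, a stress-induced sestrin, was higher at 13.6, 18.4 and 19.6 FPKM in RT and 5.55, 4.99 and 5.32 in RI, and it too differs in length.

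Of 30 DNA repair genes 29 were counted, 3 higher and 15 lower, with a median shift of -2.57 points. Of the 11 cleanly counted 6 were lower and 0 higher. The shares over all counted genes were 33.4% higher and 36.3% lower, and over all cleanly counted genes 22.9% and 43.3%. Rad50, of the complex that senses double-strand breaks, had 3.96, 5.89 and 5.33 FPKM in RT and 9.24, 8.06 and 10.1 in RI. Nhej1, an end-joining factor, had 2.56, 2.93 and 3.29 FPKM in RT and 6.20, 6.69 and 5.44 in RI. Cell cycle genes gave 7 higher and 13 lower among 30 counted, with a median shift of -1.37 points. Of the 18 cleanly counted members 3 were higher and 7 lower, a smaller share lower than the 43.3% over all cleanly counted genes. Those lowered most were kinetochore genes. Cenpe, a kinetochore motor, had 0.910, 5.97 and 1.13 FPKM in RT and 11.1, 8.98 and 12.2 in RI. Cenpf, a kinetochore protein, had 0.847, 4.09 and 0.800 FPKM in RT and 7.59, 5.80 and 8.69 in RI. Ccnb1, cyclin B1, had 7.10, 8.35 and 5.05 FPKM in RT and 19.0, 18.1 and 22.8 in RI, and ranked below all 12 other libraries. RT 2 was the highest RT library for all 3. Rrm1 and Cdk2, which act in DNA synthesis and its onset, ranked higher, at 59.3, 58.2 and 44.1 FPKM and 35.7, 36.8 and 26.4 FPKM in RT, against 11.4, 11.4 and 13.6 and 8.74, 9.12 and 8.56 in RI. Both differ in length between the tables. Gene length moved weakly with the shift: the longest sixth of cleanly counted genes had a median of -1.70 points and the shortest sixth -0.41.

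Beside the counts in this paragraph stand 33.4% higher and 36.3% lower over all counted genes, and 22.9% and 43.3% over all cleanly counted genes. Cholesterol and fatty acid genes gave 9 higher and 0 lower among 18 counted, with a median shift of 2.17 points. Among the 8 cleanly counted members 3 were higher, with a median shift of 0.44 points. Hypoxia and glycolysis genes gave 6 higher and 5 lower among 21 counted, with 2 higher and 1 lower among the 7 cleanly counted. Vegfa, the vascular growth factor, differs in length and ranked below all 12 other libraries, at 7.20, 4.16 and 5.88 FPKM in RT and 33.6, 36.0 and 24.96 in RI, and Hk2, hexokinase 2, was higher at 61.0, 37.4 and 43.2 FPKM in RT and 16.7, 18.8 and 15.1 in RI. Stress and heat shock genes gave 1 higher and 7 lower among 11 counted, with 0 higher and 4 lower among the 6 cleanly counted. Hspa1b, an inducible HSP70, had 5.63, 8.12 and 3.71 FPKM in RT and 19.2, 24.6 and 21.6 in RI.

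**Figure D5:**
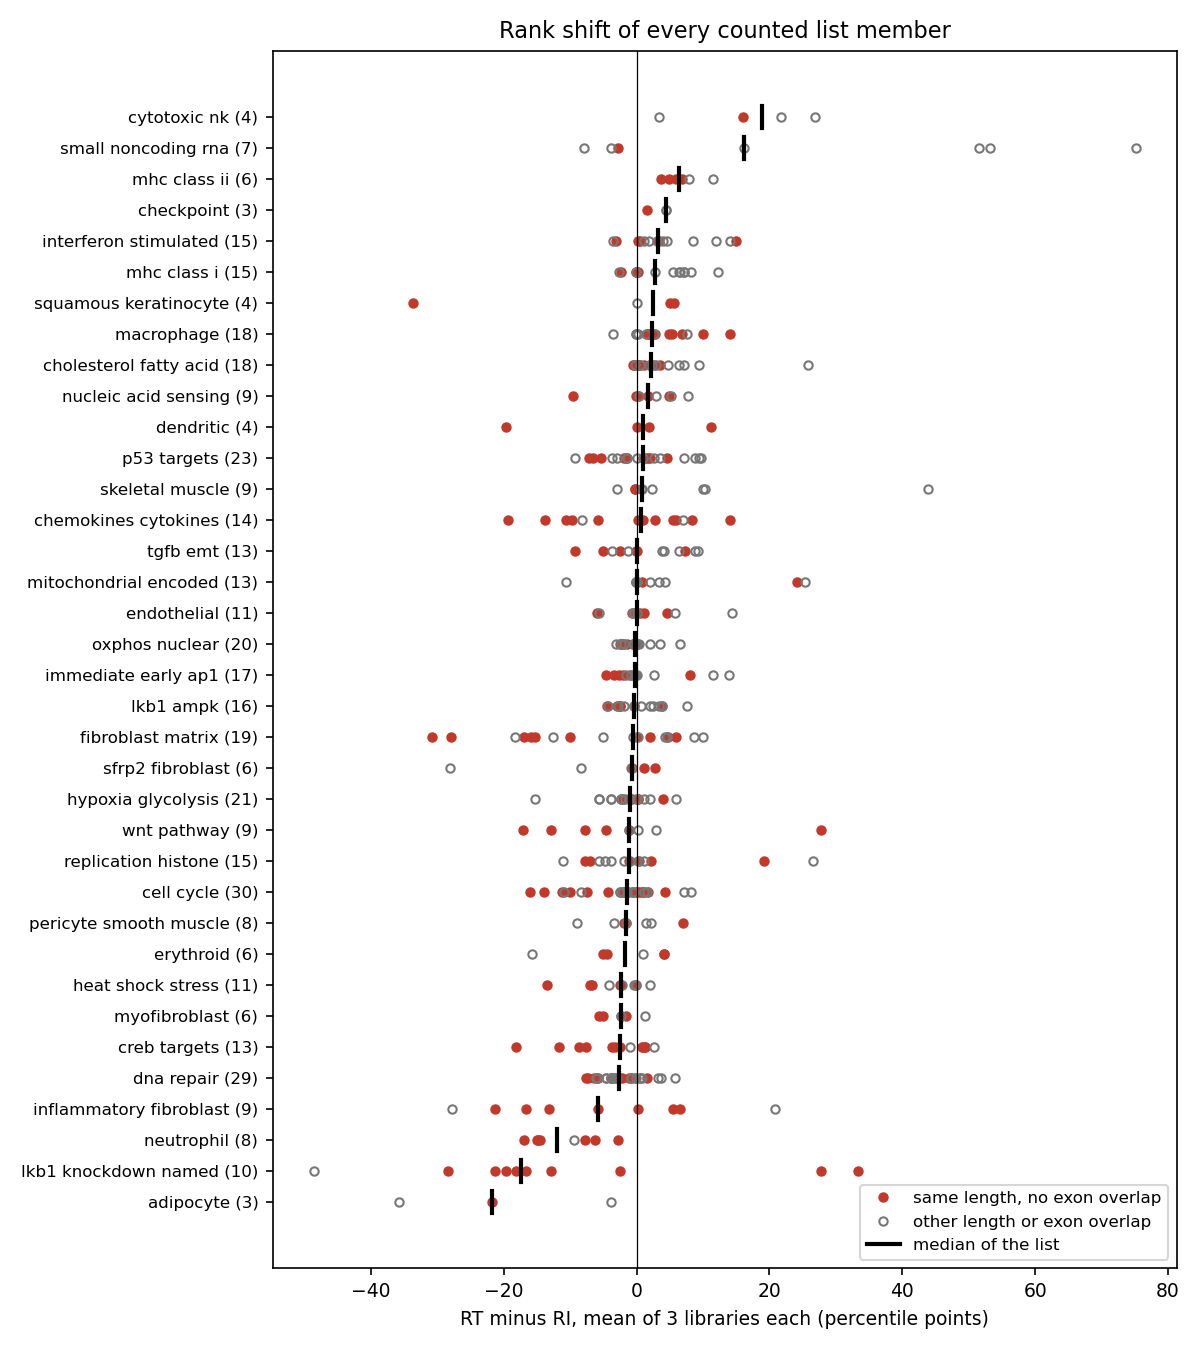
Rank shift, RT minus RI in percentile points (x axis), of every counted member of the lists with at least 3 counted members (number in brackets); red points are cleanly counted genes, open points genes of other length or with shared exons, and black bars list medians. The adipocyte, neutrophil and named knockdown lists have the lowest medians and the cytotoxic list the highest. The counted adipocyte genes and 3 of the 4 cytotoxic ones passed the minimum through 1 group. Of the 10 counted genes in the named knockdown list, 4 passed through RI and 2 through RT. That list, like the others, was drawn up with earlier results of these data known, so its median is no support.

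The 10 genes of highest mean FPKM were mt-Co1, mt-Co2, mt-Co3, Tpt1-ps3, Fth1, Lgals1, Rplp1, Eef2, mt-Atp8 and Rpl8, and the top 10 of each library took 13.9%, 13.6% and 15.8% of the summed FPKM in RT, against 12.7%, 12.04% and 12.3% in RI. The 13 mitochondrially encoded genes took 7.37%, 10.02% and 11.5% in RT and 3.97%, 4.35% and 4.94% in RI. Of the 13, 3 were cleanly counted, 2 higher and 1 lower in RT. The rest share exon sequence with another gene or are of other or unknown length, so this share is limited by the counting too. The 13 genes did not move together. Of subunits of cytochrome oxidase, mt-Co1 had 7941, 7314 and 9389 FPKM in RT and 4783, 4484 and 4618 in RI, and mt-Co2 had 4267, 5121 and 6176 in RT and 96.6, 101 and 137 in RI. Cytochrome b, encoded by mt-Cytb, stood at 1903, 2841 and 3438 FPKM in RT and 2367, 2871 and 3292 in RI. The NADH dehydrogenase subunit mt-Nd6, encoded on the other strand of the mitochondrial genome, had 6.57, 17.8 and 18.4 FPKM in RT and 127, 122 and 211 in RI.

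Some genes set the RT libraries apart from each other. The median SD of log2(FPKM + 1) over genes at 1 FPKM or more was 0.16, and the 6 most variable genes at 5 FPKM or more were mt-Nd4l, Pcdhgb8, Hist2h2aa1, Acta1, Pcdhga9 and Ckm. mt-Nd4l, whose exon overlaps mt-Nd4, had 0.185 FPKM in RT 1 and 1531 and 1816 in RT 2 and RT 3. The protocadherins Pcdhgb8 and Pcdhga9, which share exons, were high in 1 library each, at 30.4 FPKM in RT 1 and 20.4 in RT 3. Hist2h2aa1, a histone gene with a near-identical neighbour, had 25.1 FPKM in RT 1 and was listed at 0 in the other 2. Muscle genes stood apart in RT 2: Acta1, skeletal actin, had 6.18, 83.7 and 1.43 FPKM, and the 12 listed muscle genes summed to 13.9, 199 and 3.83 FPKM in RT and 4.15, 45.4 and 43.4 in RI. Their part in the other results was not tested.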

How the data were processed

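Total RNA of harvested tumours was sequenced, per the labels. The authors deposited FPKM values for the RT libraries in 1 table, and FPKM values with raw counts per gene for the other 12 libraries in another, per the file headers. HISAT2 and the builds GRCm38 and mm10 are named in the submitters' processing notes. No source used here names the counter or the annotation. The authors' counts were used for library totals and gene lengths. From the FPKM, percentile ranks were taken over gene names found once in both tables, ties sharing a rank, and genes with a mean of at least 1 FPKM over the 6 RT and RI libraries were counted. A gene was of the same length where RT values gave whole reads within 0.01. Exon overlap was read from GENCODE annotation of GRCm38. The ranking and its calls were tested on simulated data. Python 3.11.15, pandas 2.3.3, numpy 2.4.6, scipy 1.17.1 and matplotlib 3.10.9 were used. Because RT and the other libraries stand in separate tables, no p-value was computed between them.

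The libraries, lists and comparisons were chosen with earlier results of these data known. Named genes are Stk11 and Sfrp2, up to 2 members of largest non-overlapping shift in each direction of each list, the 10 of largest shift each way, the 10 of highest RT FPKM and the 6 of largest SD at a mean of at least 5 FPKM. The text gives a part of these, and other genes it names, among them C1qa, Casp4, Grem1, Gap43, Gzmd, Ccl5, S100a8, Lif, Sall1, Col3a1, Ccnb1, B2m and Bst2, were chosen after their values were seen. Alternatives were other filters, rank sets, scalings and pseudocounts and leaving out each library. The restriction to cleanly counted genes and the minimum shift of 5 points were chosen after seeing the data.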

Additional observations from a re-analysis of the deposited data

How the results depend on the processing

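The 3567 genes higher in RT became 17406 with no filter on low values, 2238 at a mean of at least 5 FPKM, 1189 among cleanly counted genes and 1644 with a shift of at least 5 points, and ranged from 3697 to 3933 without 1 library. The 3877 lower became 5943, 2413, 2248 and 1699 under the same settings, and ranged from 4046 to 4274 without 1 library. The 4443 genes outside all 12 other libraries became 15709 with no filter, 2837 at 5 FPKM and 1774 among cleanly counted genes, and ranged from 4734 to 5055 without 1 library. With no filter, genes listed at 0 throughout enter the counts of higher genes and of genes outside all 12. Ties at 0 take ranks of 25.1 to 25.7 in RT and 20.7 to 22.7 in the other 12 libraries. RT listed 16493 to 16886 names at 0, against 13579 to 14926 there. Leaving out a library loosens the rule of no overlap, so the rise in counts without 1 library follows from the rule and does not show stability. The mean share of the 10 highest genes in RT, 14.4%, was 11.4% without mitochondrially encoded genes. The median SD of log2(FPKM + 1) in RT, 0.16, was 0.0177 with no filter. Of 359 recomputed list medians 333 stayed, 23 moved and 3 reversed. The reversed ones were B and plasma cell genes, 6.03 points and -1.67 with ranks over protein-coding genes, nuclear respiratory chain genes, -0.24 points and 0.0159 as a centred log2 difference, and small noncoding RNAs, 16.1 points and -2.78 among cleanly counted genes. Of 1001 recomputed named-gene shifts 992 kept their direction and call, 9 kept the direction with overlap and 0 reversed. Most named genes were chosen for shifts without overlap, and leaving out a library cannot undo such a call. These counts therefore follow largely from the choice and the rule and do not show stability. The cause was not tested. No paired analysis was possible because no test was run between the tables and the labels do not tie RT numbers to those of other groups. The main limits are 3 libraries a group, genes counted differently in the tables, and treatment that cannot be told apart from table.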
